A study of Mus musculus with 9 samples.

Results

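The 73 potassium channel genes described here are those of the 14444 genes in the deposited table whose symbol starts with Kcn, goes on with letters and a number, and does not start with Kcnip. By symbol, 35 were grouped as voltage-gated pore subunits, 11 as inward rectifiers, 9 as two-pore channels, 7 as calcium- or sodium-activated channels and 7 as auxiliary subunits. The other 4 are noncoding RNAs named after a channel locus. The calcium- or sodium-activated group takes all Kcnma, Kcnn, Kcnt and Kcnu symbols, and how each channel opens was not examined. GENCODE M21 lists 89 protein-coding mouse genes that meet the same rule, of which 69 are among the 73, and the rest were not analysed here. Total RNA of mouse prefrontal cortex, depleted of ribosomal RNA, was sequenced at postnatal weeks 5 to 8 in 9 libraries. The groups were Shank3 mutants given UNC0642 (1 mg per kg by intraperitoneal injection, once a day for 3 days), Shank3 mutants given saline and wild-type mice given saline, with 3 libraries in each. The Shank3 protein is a scaffold at excitatory synapses, and UNC0642 is an inhibitor of EHMT1 and EHMT2, which methylate histone H3 at lysine 9. The labels name no Shank3 allele and do not say if each library is a different mouse, so a p-value here speaks of spread among libraries, possibly technical.

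Potassium channels let potassium ions leave or enter cells and so set the resting potential, the width of the action potential and the rate of firing. Voltage-gated subunits assemble as tetramers that open on depolarization, and some of them, the silent subunits, work only when joined to another family. Inward rectifiers and two-pore channels carry current near rest, while calcium- and sodium-activated channels follow the spike. In cortex the families are divided between cell types, with some channels typical of axons or fast-spiking interneurons and others of astrocytes or microglia.

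The deposited values, named CPM by the authors, carry an adjustment that equalizes, gene by gene, the mean log2 value of 2 sets of libraries, to within 2.5e-09. One adjusted set joins UNC0642 replicates 2 and 3 to the wild type, the other UNC0642 replicate 1 to the saline mutants, so the deposited differences between groups depend on the UNC0642 libraries and do not measure genotype directly. The whole reads behind the values, 12035098 to 16165483 per library, could be solved for exactly, and they are given below as RPM (a gene's reads over the library's total, times 1000000) beside the deposited values. In these reads the first principal component, with 52.0% of the variance, placed UNC0642 replicate 3 with the wild type and UNC0642 replicates 1 and 2 with the saline mutants. This split is called the division below, and it differs from the adjusted sets in the place of UNC0642 replicate 2. The labels give no batch, and a batch, an exchange of labels and a biological difference of replicate 3 cannot be told apart here, so each UNC0642 mean and count below includes a library that stands with the wild type. Of 11 genes at least 8-fold apart between all saline mutant and all wild-type libraries, 0 were potassium channel genes, and UNC0642 replicate 3 stood with the wild type in all 11. Shank3 itself had 294, 298 and 319 RPM in UNC0642 mutants, 337, 348 and 321 in saline mutants and 295, 309 and 357 in wild type, a gene total that checks the genotype only if the allele removes exons. Markers of excitatory neurons (5 genes, Slc17a7 and Camk2a among them) summed to 6365 to 6714 RPM in UNC0642 mutants, 6943 to 7442 in saline mutants and 6371 to 7022 in wild type.

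All 73 genes had reads in every library. The lowest count was 4 reads and the fewest over 9 libraries 148, so counting error is large for the lowest genes. Levels were compared per kilobase of exon in GENCODE M21 on the deposited scale. The median potassium channel gene stood at 6.365 per kilobase, against 5.628 for the 13869 genes of the table with a length. By family the median was 6.703 for voltage-gated, 9.828 for inward rectifier, 3.226 for two-pore, 4.212 for calcium- or sodium-activated and 10.15 for auxiliary genes.

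The highest level belonged to Kcnab2, an auxiliary subunit of voltage-gated channels, at 78.7 (lowest library 73.6, highest 86.0) per kilobase. Kcnj4, an inward rectifier of neurons, followed at 64.5 (lowest library 58.0, highest 79.0). Among voltage-gated genes Kcnf1, a silent subunit, led at 55.8 (lowest library 43.6, highest 63.0), ahead of Kcnh3, a channel of forebrain neurons, at 38.8 (lowest library 35.0, highest 40.9). These 4 lay far above the family medians, but their order against close neighbours was not settled: in 0 of 72 neighbouring pairs of the whole order were the ranges over 9 libraries apart. Kcnj9, which forms G-protein-gated channels with other inward rectifiers, stood at 45.3 (lowest library 38.4, highest 50.9) and Kcnj10, the main inward rectifier of astrocytes, at 40.0 (lowest library 28.4, highest 47.5). Of the two-pore genes, Kcnk1 reached 43.8 (lowest library 39.3, highest 47.7), Kcnk2, opened by stretch and lipids, 9.30 (lowest library 8.86, highest 10.1), and Kcnk3, sensitive to outside acid, 8.11 (lowest library 6.76, highest 9.56). Kcnk1 thus stood apart from the other 8 of its family in every library. Kcnt1, opened by internal sodium, led its family at 13.0 (lowest library 10.9, highest 14.4), before Kcnma1, the pore of the large-conductance calcium-activated channel, at 6.88 (lowest library 6.36, highest 7.58) and Kcnn1, of the small-conductance kind, at 5.32 (lowest library 4.56, highest 6.27). Kcnmb4, the auxiliary subunit of the large-conductance channel in neurons, stood at 32.1 (lowest library 26.1, highest 36.1) and Kcnab1 at 10.6 (lowest library 8.68, highest 11.9). The antisense RNA Kcnmb4os1 had 56.9 (lowest library 51.2, highest 64.1) and Kcnmb4os2 19.1 (lowest library 15.9, highest 28.3), but 43.1% and 34.2% of their exons lie across from Kcnmb4, and the strand setting of the counting is not given in the sources used here, so reads of the 3 genes cannot be told apart where they overlap. At the low end were Kcnq1ot1 at 0.459, a long imprinted RNA whose annotated length weighs on this value, the two-pore gene Kcnk10 at 0.480, the auxiliary gene Kcne4 at 0.526 and the inward rectifier Kcnj14 at 0.765.

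**Figure D1:**
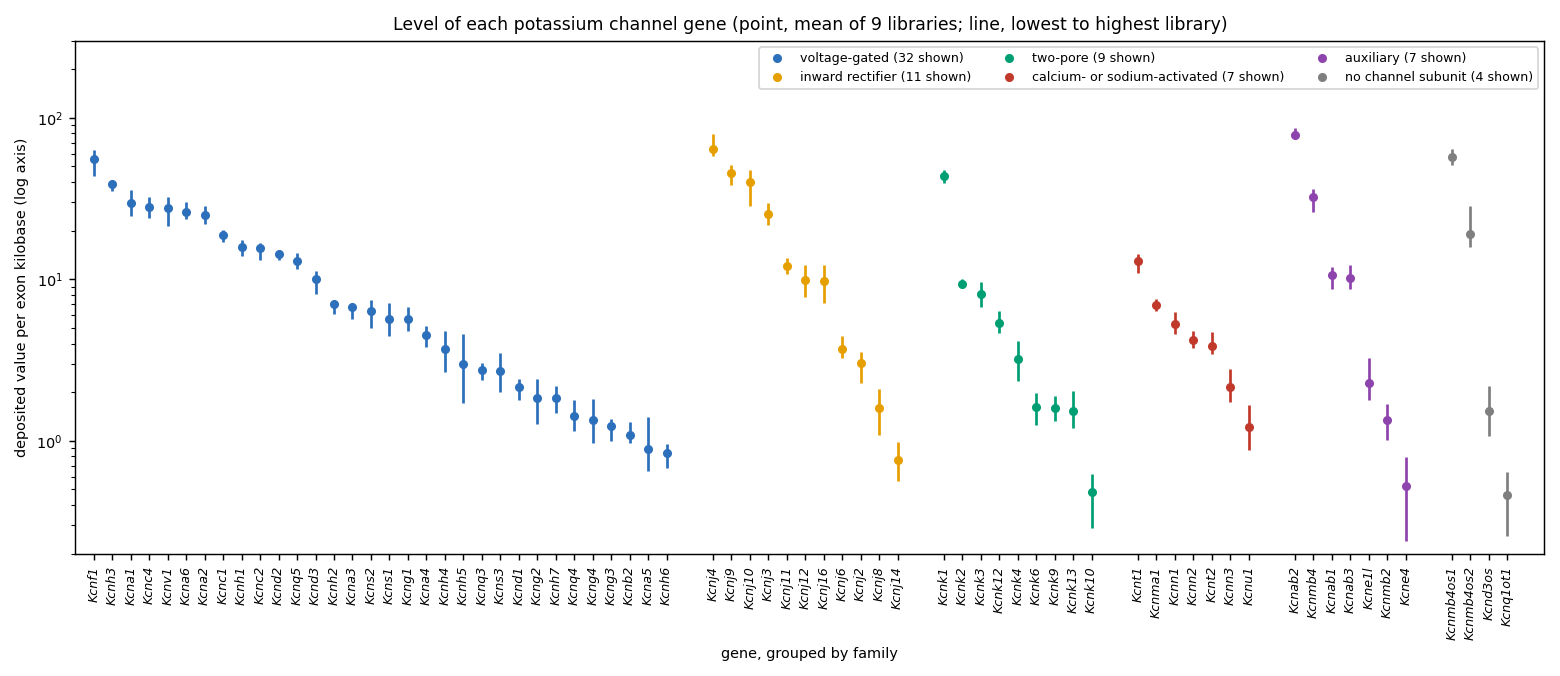
Deposited value per exon kilobase (log axis) for 70 of the 73 genes, grouped by family and sorted by level within it. Points are means of 9 libraries and lines run from the lowest to the highest library. Kcnab2, at 78.7, stands highest and Kcnq1ot1, at 0.459, lowest.

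When the recovered reads were tested with group alone, saline mutants had fewer reads of the axonal subunit Kcna1 than wild type. The same held for the fast delayed rectifier Kcnc1 and the sodium-activated channel Kcnt1, while Kcnh3 and Kcnj4 had more. With the division as a term Kcnj4 stood at 0.07 (SE 0.12), and none of these genes was called. No potassium channel gene passed the test in the values as deposited, where the adjustment above had been applied. The comparison asks what the Shank3 mutation changes, and the deposited values come first. With limma on log2(value + 0.5), 0 of 73 potassium channel genes passed an adjusted p of 0.05, as did 0 of 14444 genes (0.0%). At an unadjusted p under 0.05 the counts were 0 of 73 and 19 of 14444 (0.132%). The median log2 fold change of the 73 was -0.023, with 30 positive, against 0.003 over all genes, with 51.3% positive. The smallest p-values belonged to Kcnt1 (log2 fold change -0.16, SE 0.085, adjusted p = 1) and Kcna1 (-0.17, SE 0.10). Others among the 10 smallest were those of Kcng1 at -0.18, Kcnk3 at -0.16, Kcng4 at -0.26, Kcnk1 at -0.10, Kcnc4 at 0.12 and Kcnj8 at 0.23, each with an adjusted p of 1. The adjustment removes the difference between its 2 sets, and these sets place all saline mutant libraries apart from all wild-type libraries. The lack of calls therefore does not show that the genes were alike.

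On the recovered reads, which precede the adjustment, limma-voom called 20 of the 73 genes (27.4%) between saline mutants and wild type, 6 higher and 14 lower in the mutants. Over all genes it called 1725 of 14444 (11.9%), 5.13% higher and 6.81% lower. By family the calls were 9 of 35 voltage-gated (2 higher, 7 lower), 2 of 11 inward rectifier (1 higher, 1 lower), 2 of 9 two-pore (both lower), 2 of 7 calcium- or sodium-activated (both lower), 2 of 7 auxiliary (1 higher, 1 lower) and 3 of 4 noncoding genes (2 higher, 1 lower). The median log2 fold change was -0.0797, against -0.0121 over all genes. These calls rest on few libraries: the count was 0 without wild-type replicate 2 or saline mutant replicate 1, it was 1 without saline mutant replicate 2 or 3 and 8 without wild-type replicate 3, and it was 26 without UNC0642 replicate 3. Calls over all genes were not counted in these fits, so this change cannot be called particular to the 73. With the division as a further term, 0 of 73 were called. Every saline mutant library falls on one side of that division and every wild-type library on the other, and UNC0642 is the group with libraries on both, replicate 3 alone on the wild-type side.

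Subunits of the Kcna family, which open at low voltage and sit along axons and at their terminals, moved in both directions. Kcna1 had 122, 139 and 139 RPM in UNC0642 mutants, 110.2, 118 and 126 in saline mutants and 188, 200.1 and 161 in wild type. All 3 saline mutant libraries, and all 3 given UNC0642, lay below every wild-type library. Between saline mutants and wild type it had the smallest p of the 73 genes (log2 fold change -0.63, SE 0.094, adjusted p = 0.00997, limma-voom). Kcna2, which assembles with Kcna1, was lower as well (log2 fold change -0.26, SE 0.078, adjusted p = 0.0460). It had 273, 281 and 307 RPM in UNC0642 mutants, 284, 266 and 290.5 in saline mutants and 340.3, 359 and 310.4 in wild type. Kcnab3, an auxiliary subunit of this family, averaged 27.2 ± 2.36 in UNC0642 mutants, 25.7 ± 1.18 in saline mutants and 35.3 ± 4.50 in wild type (RPM, SD, n = 3 each), without overlap between saline mutants and wild type (log2 fold change -0.45, SE 0.12, adjusted p = 0.0304). Kcna4, which makes a rapidly inactivating current, was higher in saline mutants (log2 fold change 0.39, SE 0.11, adjusted p = 0.0428), with 19.9, 22.5 and 19.8 RPM in UNC0642 mutants, 23.5, 26.7 and 24.7 in saline mutants and 20.2, 17.3 and 19.9 in wild type. Of the other Kcna genes, Kcna3, Kcna5 and Kcna6 were not called, at -0.18, -0.10 and -0.08.

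The Kcnc genes encode fast delayed rectifiers that let neurons, fast-spiking interneurons among them, fire at high rates. Kcnc1 and Kcnc2 were lower in saline mutants and Kcnc4 was not called. Kcnc1 had 160.4, 174 and 178 RPM in UNC0642 mutants, 160.1, 172 and 160.3 in saline mutants and 194, 203 and 213 in wild type, with both mutant groups below every wild-type library (log2 fold change -0.31, SE 0.073, adjusted p = 0.0253). Kcnc2 differed in where UNC0642 replicate 3 lay. It had 99.3, 105 and 132 RPM in UNC0642 mutants, 100.1, 98.1 and 99.3 in saline mutants and 131, 131 and 126 in wild type, so that this library stood above the wild type and the other UNC0642 libraries stood near the saline mutants (log2 fold change -0.39, SE 0.096, adjusted p = 0.0293). Kcnc4, whose channel inactivates fast, averaged 99.4 ± 11.4 in UNC0642 mutants, 113 ± 6.39 in saline mutants and 92.6 ± 3.68 in wild type (RPM, SD, n = 3 each) (log2 fold change 0.28, SE 0.09, adjusted p = 0.0573).

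Kcng4, a silent subunit, was low throughout and lower in saline mutants (log2 fold change -0.83, SE 0.22, adjusted p = 0.0327), with 4.09, 4.14 and 4.36 RPM in UNC0642 mutants, 4.30, 3.35 and 4.11 in saline mutants and 7.73, 7.99 and 5.30 in wild type. Both mutant groups lay below every wild-type library. Kcnh3 was the voltage-gated gene that moved the other way with the smallest p (log2 fold change 0.29, SE 0.064, adjusted p = 0.0225). It had 218, 212 and 214 RPM in UNC0642 mutants, 253, 244 and 247 in saline mutants and 204, 199 and 207 in wild type, so that the 3 UNC0642 libraries stood between the other groups and overlapped neither.

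Both calls among calcium- and sodium-activated channels were lower in saline mutants. Kcnt1 had 120.4, 119 and 112 RPM in UNC0642 mutants, 108, 109 and 116 in saline mutants and 139.9, 147 and 149.8 in wild type, and both mutant groups lay below every wild-type library (log2 fold change -0.39, SE 0.071, adjusted p = 0.0163). Kcnn2, a small-conductance channel that follows bursts of spikes, had 32.0, 32.4 and 32.5 RPM in UNC0642 mutants, 27.6, 25.8 and 27.7 in saline mutants and 30.1, 38.8 and 38.6 in wild type (log2 fold change -0.40, SE 0.11, adjusted p = 0.0368). Here the UNC0642 libraries lay above every saline mutant library and overlapped the wild type. Kcnma1 averaged 117 ± 4.09 in UNC0642 mutants, 111 ± 10.1 in saline mutants and 123 ± 6.49 in wild type (RPM, SD, n = 3 each) and was not called, while its subunit Kcnmb4 was higher in saline mutants (log2 fold change 0.31, SE 0.092, adjusted p = 0.0456). Kcnmb4 had 112, 111 and 101 RPM in UNC0642 mutants, 115, 117 and 114 in saline mutants and 106, 93.6 and 81.7 in wild type. The overlapping Kcnmb4os1 and Kcnmb4os2 were higher too, at log2 fold changes of 0.40 and 0.60 (adjusted p = 0.0324 and 0.0467), and 31.5% of the exons of Kcnmb4 lie across from them.

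Among inward rectifiers Kcnj4 was higher and Kcnj10 lower in saline mutants. Kcnj4 had 157, 149 and 116 RPM in UNC0642 mutants, 170.5, 153 and 150.4 in saline mutants and 120.4, 111 and 111 in wild type (log2 fold change 0.46, SE 0.11, adjusted p = 0.0237). Kcnj10 had 155, 184 and 278 RPM in UNC0642 mutants, 193, 191 and 176 in saline mutants and 238, 286 and 314 in wild type (log2 fold change -0.57, SE 0.17, adjusted p = 0.0429). In both genes UNC0642 replicate 3 lay within the wild-type range, while replicates 1 and 2 did not. The summed level of 8 astrocyte markers (Slc1a2, Slc1a3, Aqp4 and others) was 4212 to 7104 RPM in UNC0642 mutants, 4734 to 5129 in saline mutants and 5489 to 7443 in wild type, and reached 7104 in UNC0642 replicate 3. Most of this sum is Slc1a2, a glutamate transporter, with 2349, 2551 and 4407 RPM in UNC0642 mutants, 2554, 2900.0 and 2668 in saline mutants and 3438, 3442 and 4484 in wild type. The list was not uniform, with 2 of 8 positive between saline mutants and wild type and 0 called, and Aldoc, a glycolytic enzyme of astrocytes, had 788, 842 and 985 RPM in UNC0642 mutants, 937, 933 and 883 in saline mutants and 796, 814 and 1117 in wild type. The part of these markers in the result was not tested, and in bulk tissue fewer cells of a type and less RNA per cell cannot be told apart. Kcnj16, which pairs with Kcnj10, averaged 37.0 ± 11.8 in UNC0642 mutants, 37.6 ± 5.60 in saline mutants and 40.3 ± 7.44 in wild type (RPM, SD, n = 3 each) and was not called.

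Both two-pore calls were lower in saline mutants. Kcnk3 had 34.8, 29.1 and 35.5 RPM in UNC0642 mutants, 27.5, 28.3 and 26.9 in saline mutants and 37.8, 38.0 and 34.1 in wild type (log2 fold change -0.41, SE 0.10, adjusted p = 0.0308), and the UNC0642 libraries lay above every saline mutant library. Kcnk13, known from microglia, had 3.68, 5.38 and 4.82 RPM in UNC0642 mutants, 2.55, 4.40 and 2.58 in saline mutants and 4.65, 8.22 and 7.87 in wild type (log2 fold change -1.11, SE 0.30, adjusted p = 0.0340), and the saline mutants lay below every wild-type library. The summed level of 8 microglial markers, of which 2 were positive and 0 called between saline mutants and wild type, was 367 to 458 RPM in UNC0642 mutants, 363 to 405 in saline mutants and 358 to 516 in wild type, and its part in the result was not tested. Kcnq1ot1, the imprinted antisense RNA of the Kcnq1 locus, had 30.9, 33.0 and 69.4 RPM in UNC0642 mutants, 25.2, 32.3 and 30.5 in saline mutants and 47.8, 68.0 and 84.5 in wild type (log2 fold change -1.15, SE 0.27, adjusted p = 0.0248). UNC0642 replicate 3 was again within the wild-type range. The 6 genes listed as fast-spiking interneuron markers, of which 0 of 6 had a positive fold change between saline mutant and wild type and 1 was called, summed to 436 to 603 RPM in UNC0642 mutants, 465 to 486 in saline mutants and 580.4 to 622 in wild type, with 603 in UNC0642 replicate 3. This sum is carried by Gad1 and Gad2, which all GABA neurons share. Gad1 had 231, 248 and 309.8 RPM in UNC0642 mutants, 241, 249 and 241 in saline mutants and 307, 302 and 330.5 in wild type. Pvalb, a marker of fast-spiking cells, had 21.0, 26.8 and 26.0 RPM in UNC0642 mutants, 28.6, 22.0 and 31.3 in saline mutants and 36.1, 41.9 and 32.2 in wild type, so that in replicate 3 Gad1 was within the wild-type range and Pvalb below it. Of 6 markers of other interneurons (Sst, Vip, Cck and others) 5 were positive and 2 called higher in saline mutants, while Reln was negative. They summed to 851 to 950.2 RPM in UNC0642 mutants, 938 to 1054 in saline mutants and 774 to 805 in wild type. Most of this sum is Cck and Sst. The part of both lists in the values of Kcna1, Kcnc1 and Kcnc2 was not tested.

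**Figure D2:**
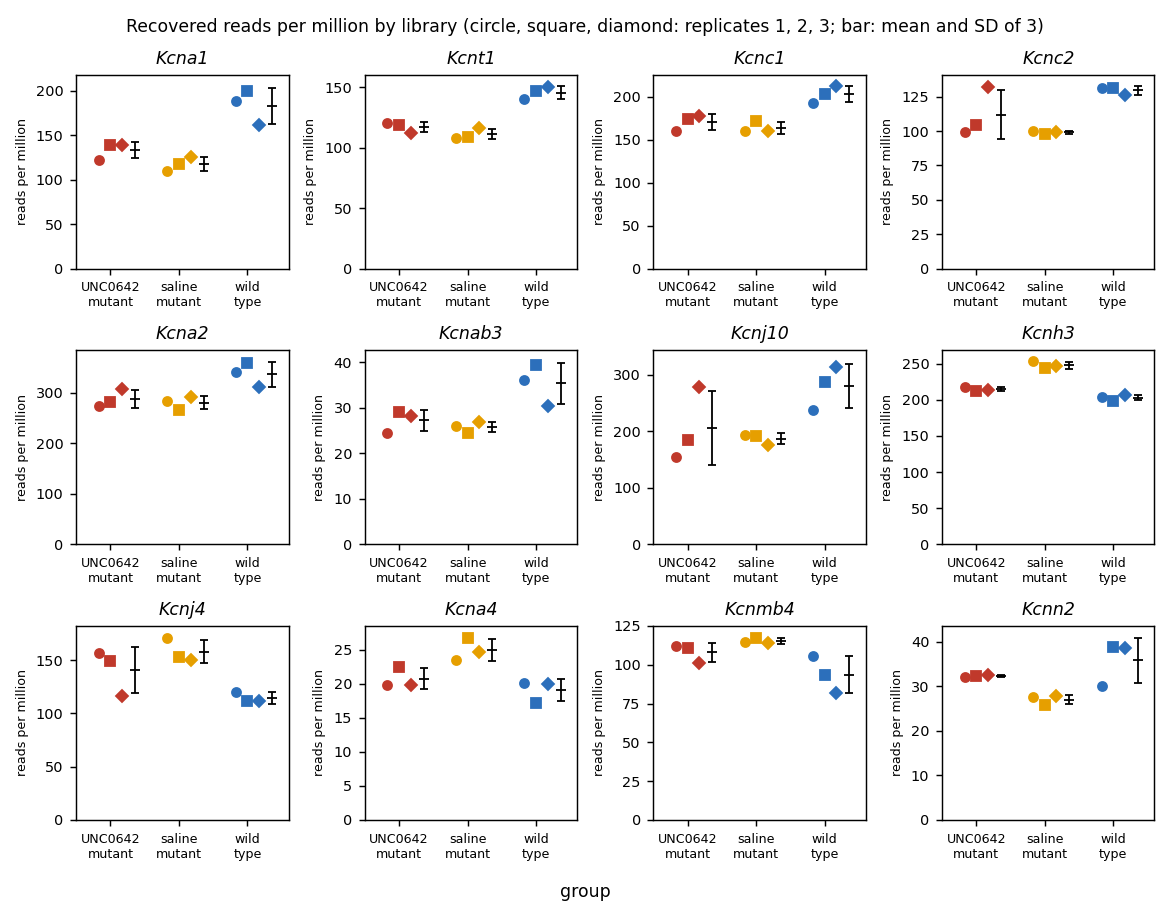
Recovered reads in RPM (linear axis from 0) of 12 potassium channel genes in UNC0642 mutants, saline mutants and wild type, left to right in each panel. Circles, squares and diamonds are replicates 1, 2 and 3, and bars are the mean and SD of 3 libraries. Kcna1, Kcnt1 and Kcnc1 are lower in all 6 mutant libraries than in wild type, while in Kcnc2 and Kcnj10 UNC0642 replicate 3 stands apart from replicates 1 and 2.

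Counted over all 73 genes in RPM, 10 were higher and 21 lower in all saline mutant than in all wild-type libraries, against 20.2% and 20.5% of all genes. The share of genes without overlap was thus 13.7% higher and 28.8% lower among the 73. The 11 of these 31 genes that were not called include Kcnk1, Kcnd2 and Kcnd3, lower in saline mutants, and Kcnf1, Kcnj9 and Kcnj11, higher in them. Kcnd2 and Kcnd3 make the rapidly inactivating current of dendrites and differed by -0.19 and -0.21. Kcnj11, the pore of the ATP-sensitive channel, differed by 0.17. Over the 53 genes that were not called, log2 fold changes on the reads ran from -0.54 in Kcnj14 to 0.92 in Kcne4, and 19 of them lay within 0.1 of 0.

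**Figure D3:**
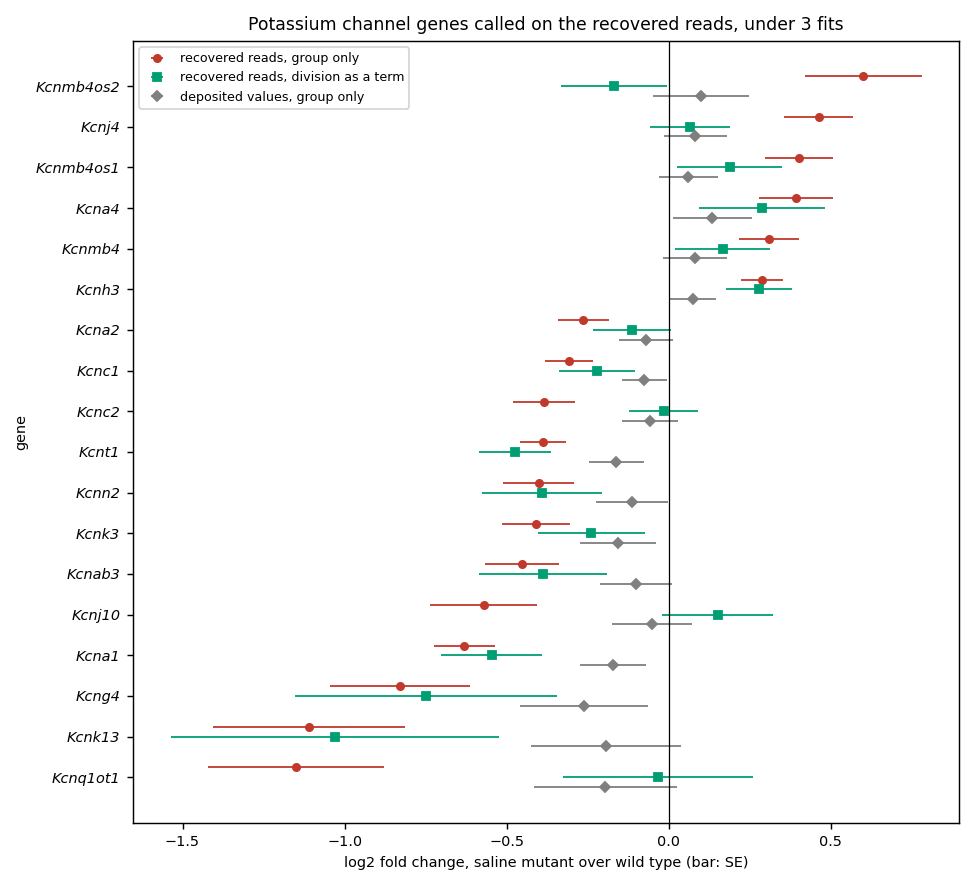
Log2 fold change, saline mutant over wild type, with SE, for 18 of the 20 genes called on the recovered reads. Circles are the reads with group only, squares the reads with the division of the libraries as a term and diamonds the deposited values. Kcnh3, Kcnt1 and Kcna1 are of like size under the division term, Kcnc2, Kcnq1ot1 and Kcnj4 lie near 0, and Kcnj10 and Kcnmb4os2 change sign.

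With the division as a term, the fitted difference is that of saline mutants minus wild type plus that of UNC0642 replicate 3 minus replicates 1 and 2, and errors were larger. The smallest p belonged to Kcnt1 (log2 fold change -0.47, SE 0.11, adjusted p = 0.631) and Kcna1 (log2 fold change -0.55, SE 0.16, adjusted p = 0.726), followed by Kcnk1 (log2 fold change -0.35, SE 0.11, adjusted p = 0.846). Kcnh3 stood at 0.28 (SE 0.10). Kcnc2, by contrast, stood at -0.02 (SE 0.11), Kcnq1ot1 at -0.03 (SE 0.29) and Kcnj4 at 0.07 (SE 0.12). Kcnj10 turned to 0.15 (SE 0.17) and Kcnmb4os2 to -0.17 (SE 0.16). None passed the threshold, as was so for all 14444 genes (0.0%), with 7 of the 73 and 711 of all genes (4.92%) at an unadjusted p under 0.05.

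Promoters are shown for those called channel genes whose RefSeq entry starts at the outer end of the gene, limited to the first ones of smallest p in each direction. Of the 20 genes, 11 had an entry (GRCm38.p6) and 5 of these met that condition, with Kcng4 and Kcnj10 lower and Kcna4 higher in saline mutants. The 250 bases before the start are printed 5′ to 3′ on the strand of the gene, with matches to the GC box GGGCGG, on either strand, in capitals. The windows are chr8:119635681-119635930, minus strand, for Kcng4, chr1:172340960-172341209, plus strand, for Kcnj10, and chr2:107290339-107290588, plus strand, for Kcna4.
Kcng4: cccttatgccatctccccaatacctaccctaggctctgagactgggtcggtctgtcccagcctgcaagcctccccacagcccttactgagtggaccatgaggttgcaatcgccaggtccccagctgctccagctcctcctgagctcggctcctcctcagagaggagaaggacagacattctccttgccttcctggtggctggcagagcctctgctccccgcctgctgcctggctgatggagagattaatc
Kcnj10: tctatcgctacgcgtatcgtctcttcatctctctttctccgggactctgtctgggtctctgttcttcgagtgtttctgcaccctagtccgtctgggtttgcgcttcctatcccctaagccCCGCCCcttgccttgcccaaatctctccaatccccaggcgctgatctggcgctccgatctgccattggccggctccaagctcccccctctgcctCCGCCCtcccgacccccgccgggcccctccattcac
Kcna4: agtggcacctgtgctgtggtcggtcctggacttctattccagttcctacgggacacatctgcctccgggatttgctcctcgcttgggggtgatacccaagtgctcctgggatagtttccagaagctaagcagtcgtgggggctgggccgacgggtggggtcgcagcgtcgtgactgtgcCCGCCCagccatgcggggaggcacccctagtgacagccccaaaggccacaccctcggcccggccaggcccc

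Kcng4 held 0 GC boxes, Kcnj10 held 2 and Kcna4 held 1, and 32.7% of 32817 RefSeq promoter windows of the same length hold at least 1. The CCAAT box, with the letters CCAAT, matched 1 time in Kcng4, 2 times in Kcnj10 and 0 times in Kcna4 on either strand, against 33.8% of windows with a match. The TATA box TATAAA (12.4% of windows) and the cyclic AMP response element TGACGTCA (1.55%) matched 0 times in the 3 genes. G and C made up 60.4%, 62.0% and 65.2% of the bases, against a median of 52.4% over all windows. No motif was shared by the 3 windows, and no readout of these data bears on them directly.

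Between UNC0642 and saline mutants, the comparison that asks what the compound changes, no potassium channel gene passed the adjusted threshold on the deposited values or on the reads. Kcnh3 had the smallest p of the 73 on the reads, with all 3 UNC0642 libraries below the saline mutants. On the deposited values limma called 0 of 73 genes and 0 of 14444 (0.0%). At an unadjusted p under 0.05 there were 2 of 73, Kcnj10 among them (log2 fold change -0.26, SE 0.12, adjusted p = 1), against 1.95% of all genes. That count was 1 without wild-type replicate 2, saline mutant replicate 1 or UNC0642 replicate 1, and 5 without UNC0642 replicate 3. The median log2 fold change was -0.0173, with 32 positive, against 0.00281 over all genes, with 51.0% positive. By family 10 of 35 voltage-gated, 6 of 11 inward rectifier, 6 of 9 two-pore and 4 of 7 calcium- or sodium-activated genes had a positive value, none of them called. Kcnd3, Kcnc1, Kcnab3, Kcnab2 and Kcna1 were on the negative side, at -0.17, -0.11, -0.16, -0.10 and -0.14. On the positive side were Kcng2, a silent subunit, at 0.27 and Kcnmb4os2 at 0.21, though on the reads Kcnmb4os2 stood at -0.11.

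The recovered reads gave 0 of 73 genes called by limma-voom as well, and 0 of 14444 (0.0%), with 4 of 73 and 536 of 14444 (3.71%) at an unadjusted p under 0.05. The 4 were Kcnh3 (log2 fold change -0.21, SE 0.064, adjusted p = 0.974), Kcna4 (log2 fold change -0.27, SE 0.11, adjusted p = 0.974), Kcnk3 (log2 fold change 0.25, SE 0.10, adjusted p = 0.974) and Kcnn2 (log2 fold change 0.26, SE 0.11, adjusted p = 0.974). Without overlap in RPM, 4 genes were higher in UNC0642 mutants, Kcna3, Kcnd2, Kcnk3 and Kcnn2, against 5.8% of all genes. The 3 lower ones were Kcna4, Kcnh3 and Kcnmb4, against 3.89%. Kcna1, Kcnab3, Kcnc1 and Kcnj10 had a positive sign in these reads, at 0.18, 0.09, 0.06 and 0.10, opposite to that on the deposited values. Kcnj10 stood at -0.15 (SE 0.11) with the division as a term and at -0.14 (SE 0.075) with UNC0642 replicates 1 and 2 alone. Its positive sign thus rested on UNC0642 replicate 3. For Kcna1, Kcnab3, Kcnc1 and Kcnj10 the deposited difference therefore gives no direction for the compound. Other genes changed sign as well. Among them were Kcnt1 (-0.08 deposited, 0.07 on the reads), Kcna2 (-0.10 and 0.04), Kcnc2 (-0.06 and 0.17) and Kcnmb4os2 (0.21 and -0.11). The adjustment acts on every gene, so a deposited sign alone gives no direction for the compound in any of the 73.

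On the side of the division that holds the saline mutants, by the first principal component, UNC0642 replicates 1 and 2 were set against the 3 saline mutants. Again 0 of 73 and 0 of 14444 genes (0.0%) were called, with 4 and 853 (5.91%) at an unadjusted p under 0.05. Kcnh3 had the smallest p of the 73 (log2 fold change -0.20, SE 0.054, adjusted p = 0.784), followed by Kcnn2 (log2 fold change 0.26, SE 0.096, adjusted p = 0.828), Kcnj16 (log2 fold change -0.31, SE 0.12, adjusted p = 0.828) and Kcnk1 (log2 fold change 0.14, SE 0.066, adjusted p = 0.834). Kcnh3 thus differed by -0.21 over all UNC0642 libraries and by -0.20 on that side, and did not pass after adjustment over all genes in either.

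Kcna1 and Kcnt1 lay below every wild-type library in all 3 UNC0642 libraries as well, but no gene of the 73 passed the threshold between UNC0642 mutants and wild type. The 3 comparisons share libraries, so their values stand side by side and are not independent. On the deposited values limma called 0 of 73 and 0 of 14444 genes (0.0%), with 10 of 73 and 1238 of 14444 (8.57%) at an unadjusted p under 0.05. The count of 10 became 3 without wild-type replicate 2 and 5 without UNC0642 replicate 2. The median log2 fold change was -0.042, with 30 positive, against 0.004 over all genes, with 50.9% positive. These 10 included Kcna1 (log2 fold change -0.31, SE 0.10, adjusted p = 0.576) and Kcnt1 (-0.25, SE 0.085). Further genes among them were Kcnc1 (-0.18), Kcnj10 (-0.31), Kcng4 (-0.48), Kcnab3 (-0.26), and, as the single positive one, Kcnj8 (0.46), all with an adjusted p of 0.576. Kcnj8, the pore of the ATP-sensitive channel of mural cells, averaged 4.63 ± 0.682 in UNC0642 mutants, 3.83 ± 0.295 in saline mutants and 3.13 ± 0.585 in wild type (RPM, SD, n = 3 each), and 6 mural cell markers summed to 143 to 172 RPM in UNC0642 mutants, 134 to 168 in saline mutants and 137 to 192 in wild type, whose part in the result was not tested.

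On the recovered reads 0 of 73 genes were called between UNC0642 mutants and wild type, against 8 of 14444 (0.0554%). At an unadjusted p under 0.05 there were 18 of 73 and 19.3% of all genes. Among these were Kcna1 (log2 fold change -0.45, SE 0.093, adjusted p = 0.126, limma-voom) and Kcnt1 (log2 fold change -0.31, SE 0.071, adjusted p = 0.130). The count of called genes among the 73 depended on UNC0642 replicate 3, without which it was 17, and it was 1 without wild-type replicate 3. Calls over all genes were not counted in these fits, so the 17 cannot be set against a share. Without overlap, 4 genes were higher (Kcnh3, Kcnj8, Kcnmb4os1 and Kcnu1) and 11 lower (among them Kcna1, Kcna2, Kcnab2, Kcnab3, Kcnc1, Kcng4, Kcnk1 and Kcnt1) in UNC0642 mutants, against 9.84% and 7.62% of all genes. UNC0642 replicate 3 against the wild-type libraries on the same side of the division gave -0.37 for Kcnt1 and -0.40 for Kcna1 (SE 0.11 and 0.14). Neither was called (adjusted p = 1), against 0.0138% of all genes, and this contrast has 1 treated library, assumed to vary like the others.

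Each UNC0642 library was then placed on the log2 scale between the saline mutant mean, taken as 0, and the wild-type mean, taken as 1, for the 20 genes called on the reads. The saline mutant and wild-type libraries that set this scale also chose the genes, so the positions are a description. Replicate 3 was nearer to the wild type in 13 of 20 genes (65%), replicate 1 in 4 and replicate 2 in 3. Over the 1725 called genes of the table the shares were 80.3%, 7.83% and 9.57%. Replicate 3 lay inside the wild-type range for 9 of the 20 and inside the saline mutant range for 2, Kcnt1 among them, at a position of 0.0423. Where replicate 3 lay against these ranges was not counted over the 1725 called genes. Kcng4 (0.19), Kcnab3 (0.287), Kcna1 (0.373) and Kcnc1 (0.378) also had this library nearer to the saline mutants. Kcnq1ot1 (1.08), Kcnc2 (1.07), Kcnmb4os2 (1.04), Kcnj10 (1.01) and Kcnj4 (0.958) had it at the wild-type mean. In Kcnh3 (0.648, 0.773 and 0.744) and Kcnn2 (0.619, 0.661 and 0.67) replicates 1, 2 and 3 stood close together between the means.

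**Figure D4:**
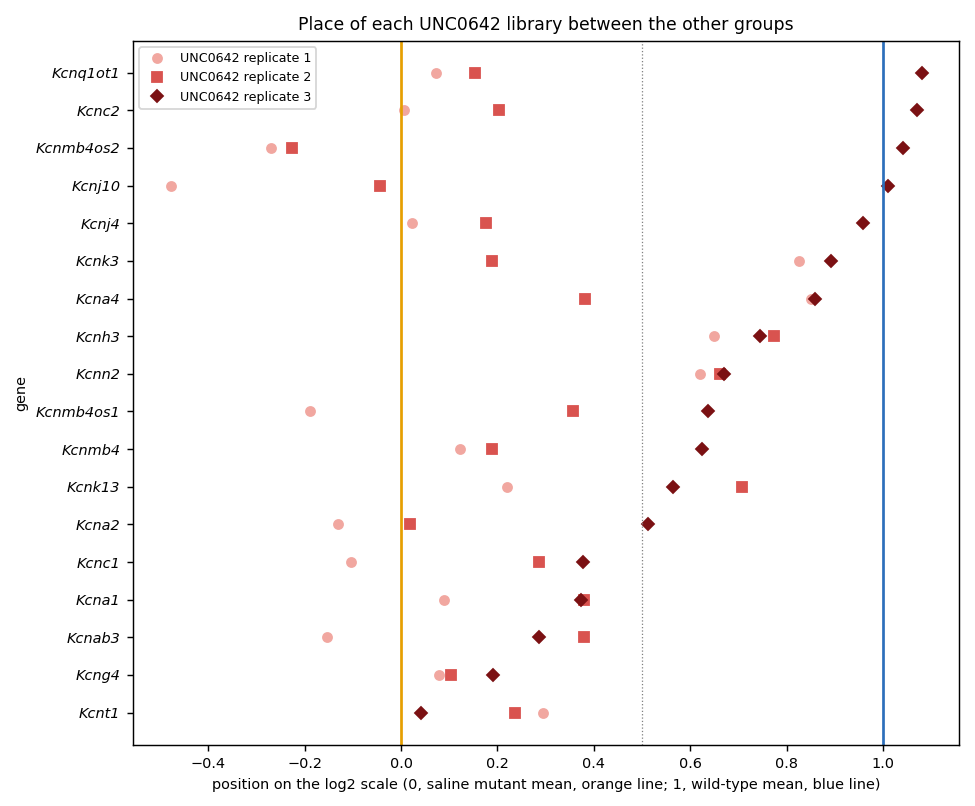
Position of UNC0642 replicates 1, 2 and 3 on the log2 scale between the saline mutant mean (0, orange line) and the wild-type mean (1, blue line) for 18 of the 20 genes called on the recovered reads, sorted by replicate 3. The dotted line marks the middle. Replicate 3 runs from 0.0423 in Kcnt1 to 1.08 in Kcnq1ot1, while in Kcnh3 and Kcnn2 the 3 replicates stand close together.

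Partners of these channels were taken from a list of 44 genes, of which 42 were measured. Limma-voom on the reads called 5 of the 42 between saline mutants and wild type, 3 higher and 2 lower. This was no larger a share than the 11.9% over all genes, so the list as a whole did not stand out. With the division as a term 0 of the 42 were called. Cntn2, which gathers Kcna channels beside the node of Ranvier, had 83.3, 94.2 and 100.3 RPM in UNC0642 mutants, 68.6, 106 and 84.2 in saline mutants and 119.8, 154 and 142 in wild type (log2 fold change -0.70, SE 0.14, adjusted p = 0.0199 for saline mutant against wild type). Both mutant groups lay below the wild type, as in Kcna1. Cntn2 is also made by oligodendrocytes, whose 6 markers (Mbp, Mobp and others) summed to 2477 to 4755 RPM in UNC0642 mutants, 1470.0 to 3370.0 in saline mutants and 2854 to 4732 in wild type. Between saline mutants and wild type 0 of the 6 were positive, with a median log2 fold change of -0.69 on the reads, and 0 were called. Mbp, of the myelin sheath, had 1171, 2224 and 1619 RPM in UNC0642 mutants, 699, 1601 and 1471 in saline mutants and 1330.0, 2173 and 2191 in wild type. It was lowest in saline mutant replicate 1, where Cntn2 and Kcna1 were lowest too. It was highest in UNC0642 replicate 2, where Cntn2 (94.2 RPM) and Kcna1 (139 RPM) lay below every wild-type library. The part of oligodendrocytes in the values of Kcna1 and Cntn2 was not tested. Ank3, which anchors Kcnq channels at the axon initial segment, was lower as well (log2 fold change -0.39, SE 0.095, adjusted p = 0.0271). Stx1a, a protein of transmitter release, was higher (log2 fold change 0.48, SE 0.11, adjusted p = 0.0238), as were Kcnip4, a subunit of Kcnd channels (log2 fold change 0.43, SE 0.10, adjusted p = 0.0253), and Gng3, a G-protein subunit (log2 fold change 0.42, SE 0.11, adjusted p = 0.0348). In UNC0642 replicate 3, Ank3 (255 RPM), Stx1a (374 RPM) and Gng3 (172 RPM) were within the wild-type range. Kcnip4 (73.5 RPM) and Cntn2 (100.3 RPM) were not. On the deposited values 0 of 42 were called in the 3 comparisons, against 0.0% of all genes. Between UNC0642 and saline mutants the smallest p among them was that of Lrrc38, an auxiliary subunit of the large-conductance channel (log2 fold change -0.81, SE 0.23, adjusted p = 1), with 0.817, 2.47 and 1.65 RPM in UNC0642 mutants, 2.47, 3.15 and 2.23 in saline mutants and 3.41, 4.15 and 2.65 in wild type.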

How the data were processed

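Libraries were stranded and depleted with Ribo-Zero, as the labels' protocols state. The tools named in the submitters' processing notes are cutadapt, TopHat2 and HTSeq, the build is mm9, and how values were normalized, or strand used, is not given in the sources used here. Deposited values are a signal per gene, named CPM by the authors, which no file header explains. They are not plain CPM, and none is 0. Among 255 ways to split the libraries into 2 adjusted sets, 1 left no gene with a difference in mean log2 value between its sets above 2.5e-09, while the next left 0.87.

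Whole reads were recovered by searching each gene for a shift of one set that turns its 9 values, less a prior (mean 3.0 reads), into whole numbers. This gave 1 solution for 14444 of 14444 genes, 100% of values being whole within 0.02 reads, and the count test on these reads is an alternative chosen after seeing the data. The step was tested on simulated data.

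The main test was limma 3.58.1 (R 4.3.3) with a trend on log2(value + 0.5), a scale that understates changes of low genes, over all 14444 genes and 9 libraries, modelling group alone, with p-values adjusted by Benjamini and Hochberg. Limma-voom was used on the reads. Alternatives were other pseudocounts, median-of-ratios factors, a filter on low values, 2 groups only, a replicate block, 1 library left out and, on the reads, the division by the first principal component (the wild type and UNC0642 replicate 3 against the rest) as a term or 1 side of it. No gene was removed, and 73 of 73 members reached a value of 1 in at least 3 libraries. Named genes were the 10 of smallest p in each comparison, the 3 of highest level in each family and the leading ones of each fit on reads, and others were named after their values were seen. All 73 are counted, but 3 are not reported here by name. The members, lists and rules were chosen with earlier results of these data known. Lengths, chromosomes and overlaps came from GENCODE M21, which is on another build than mm9, and promoter sequences from RefSeq (GRCm38.p6). Replicate numbers were not treated as pairs in the main test. On the reads 3 of 9 correlations of same-numbered libraries were over 0.1. Differently numbered libraries were not set beside them, so this does not settle if the samples were paired. Scripts ran in Python 3.11.15 with numpy 2.4.6 and pandas 2.3.3, and matplotlib 3.10.9 drew the figures.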

Additional observations from a re-analysis of the deposited data

How the results depend on the processing

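On the deposited values, 0 potassium channel genes were called in the 3 comparisons under another pseudocount (0.1 or 2), median-of-ratios factors, the filter on low values, only the 2 groups compared, a replicate block, an adjusted p under 0.1 or without any 1 library. Of 907 alternative values of 49 named gene results, 882 kept their direction and 25, from 12 results, had the opposite sign. Where a value changed below, the cause was not tested unless fewer libraries explain it by construction.

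For saline mutants against wild type, the reads gave 20 called genes with totals and 18 with median-of-ratios factors, and 0 with the division as a term. Potassium channel genes at an unadjusted p under 0.05 numbered 31, 30 and 7 under these settings and 1 with only the 2 groups, and 0 to 6 without 1 library. Beside the 31, 4668 of 14444 genes (32.3%) were at that p, and beside the 7, 711 (4.92%). Over all genes the calls were 1725 and 1797 on the reads and 5 with only the 2 groups. The median fold change was -0.08 and -0.069 on the reads. Without 1 library the 20 calls ranged from 0 to 26, with no count over all genes beside them. With the division as a term Kcnj10 was at 0.15 and Kcnmb4os2 at -0.17, and without 1 library the deposited values gave -0.15 to 0.02 for Kcnj10 and -0.03 to 0.19 for Kcnmb4.

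For UNC0642 against saline mutants, genes at an unadjusted p under 0.05 numbered 1 with median-of-ratios factors, 4, 4 and 4 on the reads (totals, median-of-ratios factors and 1 side of the division) and 1 to 5 without 1 library. The median was 0.042 on the reads and -0.062 to 0.019 without 1 library. On the reads (totals, median-of-ratios factors, division as a term, 1 side) Kcna1 was at 0.18, 0.16, 0.15 and 0.15, Kcnab3 at 0.09, 0.07, 0.06 and 0.07 and Kcnc1 at 0.06, 0.04, 0.03 and 0.03. Kcnj10 was at 0.1 and 0.08 and Kcnmb4os2 at -0.11 and -0.13 with the first 2 settings. With the last 2 settings Kcnj10 was at -0.15 and -0.14 and Kcnmb4os2 at 0.15 and 0.15. Without 1 library Kcnj16 ranged from -0.38 to 0.01, Kcnk3 from -0.03 to 0.21 and Kcnn2 from -0.03 to 0.1.

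For UNC0642 mutants against wild type, genes at an unadjusted p under 0.05 numbered 18, 16, 6 and 3 on the reads under those 4 settings and 3 to 13 without 1 library. Over all genes the calls were 8, 10, 3 and 2, and 0 to 4 on the deposited values without 1 library. The reads called 1 of the potassium channel genes at an adjusted p under 0.1, and 0 to 17 without 1 library, where calls over all genes were not counted. Kcnj10 was at 0 with the division as a term and 0.01 on 1 side.

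Same-numbered libraries had correlations of -0.19 to 0.31 on the deposited values, which do not settle if the replicate numbers pair the samples. With a replicate block the counts at an unadjusted p under 0.05 were 0 for saline mutants against wild type, 2 for UNC0642 against saline mutants and 11 for UNC0642 mutants against wild type, and 0 were called. Counts of 4 reads in a library limit the lowest genes.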
